A study of Mus musculus with 6 samples.

Results

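The mitochondrial carrier genes named Slc25a and a number were read out as a family in CD4+CD8+ double-positive thymocytes with and without the heme exporter gene Flvcr. Members were all genes whose current symbol has that form, with 1 gene left out, and each gene was represented by its brightest probe. This gave 44 genes with 72 probes, out of 20289 genes with a named probe on the array. A gene counted as detected when its probe had a detection p-value (signal against the negative controls of the same array) under 0.05 on at least 3 of 6 arrays. By this rule 29 of the 44 genes were detected and 15 were not.

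CD4+CD8+ thymocytes of mice with a C57BL/6 background had been purified by cell sorting, and the total RNA of each sample was read on 1 Illumina bead array after biotin labelling. The Flvcr-deleted group (Flvcr-/-) and the control group (Flvcr+/+) had 3 arrays each. The sources used here do not give how and in which cells the gene was deleted, the age of the mice, or whether each sample is a different animal. The p-values therefore rest on the spread between samples, which may be technical. Flvcr encodes a plasma membrane exporter of heme.

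Mitochondrial carriers are small proteins that span the inner mitochondrial membrane and move nucleotides, phosphate, carboxylates, amino acids, cofactors and metals between the cytosol and the matrix. Each consists of repeated modules around a central binding site. The mitoferrins, Slc25a37 and Slc25a28, bring iron into the matrix, where it is used for heme and iron-sulfur clusters. Heme is completed inside mitochondria and must leave them before it can be exported from the cell.

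The 8 of 10 double-positive thymocyte markers that were tested (Cd4, Cd8b1, Rag1, Rag2, Dntt, Ptcra, Cd3e and Cd1d1) had log2 fold changes of -0.18 to 0.05, whereas Cd8a, which encodes a chain of CD8, was detected on 0 arrays. A gene that is not detected here is therefore not shown to be silent. Detected probes numbered 15307 to 15792 of 45281 per array, and arrays correlated at 0.977 to 0.986 with others of their group and at 0.978 to 0.984 with the other group. Flvcr1 was 1.88-fold lower in Flvcr-deleted cells (log2 fold change -0.91, limma adjusted p = 0.0317). Single markers of other cells differed as well. Of 5 B cell markers, 3 had a probe and Ms4a1 was detected on 0 arrays. The summed intensity of these markers was 1881 to 2163 in Flvcr-deleted and 3879 to 6332 in control cells. Igkc alone was lower, with 361.9 to 523.7 in Flvcr-deleted and 2786.7 to 4970.1 in control cells (log2 fold change -3.36, limma adjusted p = 5.09e-07), while Cd79b overlapped between the groups (0.26). Of 6 macrophage and dendritic markers, Lyz2 and Cd74 were tested, Csf1r was detected on 1 array, and Adgre1, Cd68 and Itgax on 0 arrays. The sums were 821 to 860 in Flvcr-deleted and 900 to 980 in control cells. Marker sums are of intensities without background correction and include undetected probes, so part of each sum is background. Cd74 alone read 165.6 to 170.4 in Flvcr-deleted and 204.1 to 276.1 in control cells. Cd74 had a log2 fold change of -1.13 (limma adjusted p = 0.559) and Lyz2 of 0.05. The part of such cells in the values below was not tested, and in sorted bulk samples fewer cells of a type cannot be told apart from less RNA per cell. The Y-linked gene Eif2s3y was detected on Flvcr-deleted replicate 1 and control replicate 3, and Xist on the other 4 arrays, which puts 1 male pattern in each group.

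Detection separated closely related carriers. Of the adenine nucleotide translocators, which exchange ADP for ATP across the inner membrane, Slc25a5 was detected on all 6 arrays and the testis isoform gene Slc25a31 on 0 arrays. Slc25a4, the isoform of heart and muscle, lay just outside the rule. Its probe read 142.3, 139.3 and 162.6 intensity units in Flvcr-deleted replicates 1, 2 and 3, and 142.2, 184.6 and 138.9 in control replicates 1, 2 and 3. It was detected on 1 Flvcr-deleted and 1 control array, and the groups overlapped. The Slc25a5 probe read 17556.7 to 21511.4 in Flvcr-deleted and 17262.4 to 23674.8 in control cells. Intensities of different probes are not on a common scale of transcript abundance, so these genes are set apart by detection and not by level.

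The 15 undetected members covered each role except the mitoferrins. In the group for adenine nucleotides and phosphate they were Slc25a4, Slc25a31 and Slc25a41, the last an ATP-Mg/phosphate carrier gene. Among amino acid carriers 5 of 10 were not detected. These were Slc25a2 (an ornithine carrier), Slc25a13 (the aspartate-glutamate carrier citrin), Slc25a18 and Slc25a22 (glutamate carriers) and Slc25a40, which takes part in mitochondrial glutathione import. Their paralogues Slc25a15, Slc25a12 and Slc25a39 were each detected on all 6 arrays. Slc25a42, a coenzyme A carrier, Slc25a21, an oxodicarboxylate carrier, and Slc25a27, an uncoupling-like protein, were also undetected. So were Slc25a34, Slc25a46 (an outer membrane protein of mitochondrial dynamics), Slc25a48 and Slc25a54. Of these 15 genes, 12 were detected on 0 arrays and 3 on 2 arrays, and their intensities lay between 98.3 and 184.6. Slc25a34 was detected on 0 Flvcr-deleted and 2 control arrays, with detection p-values of 0.08868, 0.67842 and 0.7265 in Flvcr-deleted cells and 0.01816, 0.01816 and 0.08333 in control cells. It was not tested. The other members just outside the rule, Slc25a4 and Slc25a27, had 1 array in each group. The detected member with the fewest arrays was Slc25a33, with 2 Flvcr-deleted and 3 control arrays.

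**Figure D1:**
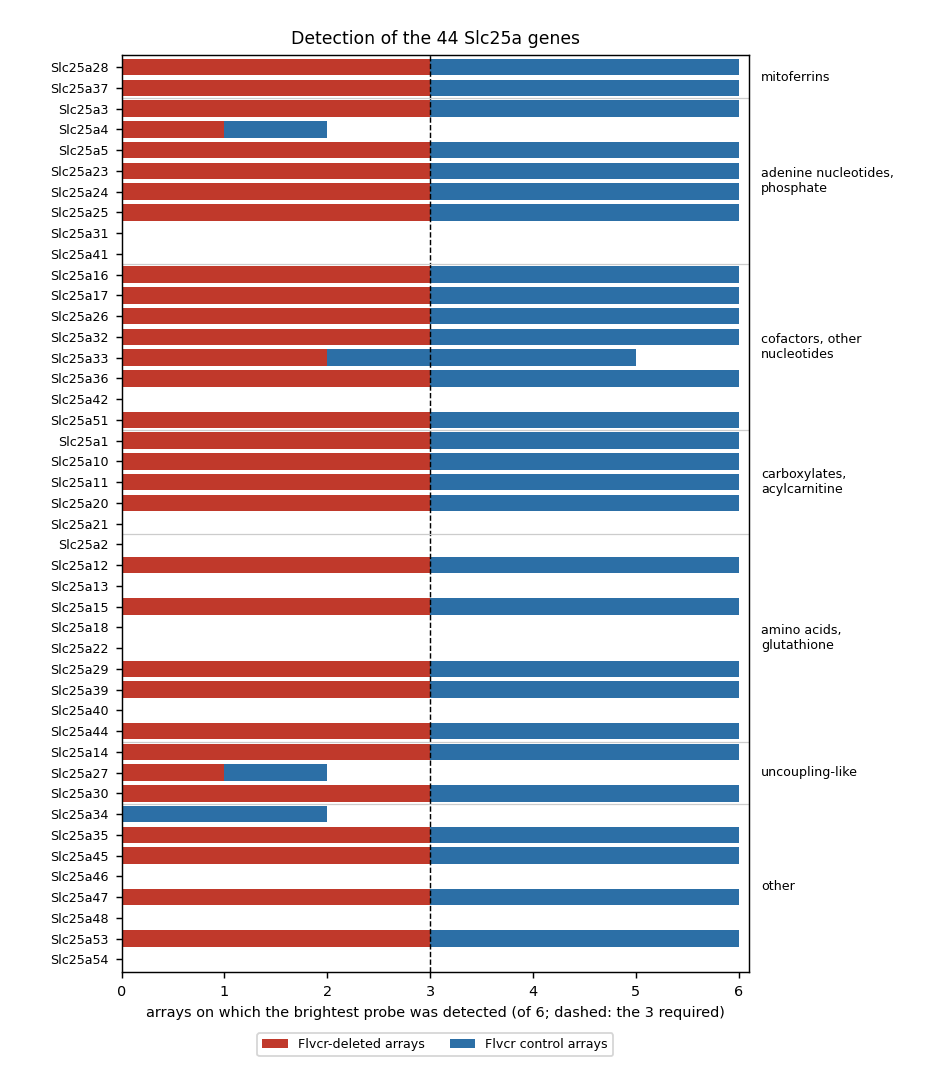
Number of arrays (x axis, of 6) on which the brightest probe of each of the 44 Slc25a genes was detected, stacked as Flvcr-deleted and control arrays and grouped by substrate, with the 3 arrays required as a dashed line. Of the 29 genes past the line, 28 were detected on all 6 arrays and Slc25a33 on 5, and 12 genes have no bar.

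No detected member passed the test between the groups. After background correction and quantile normalization, 0 of 29 genes passed an adjusted p of 0.05 in limma, where 0.148% of all 8808 genes tested did, and every member had an adjusted p of 1. At an unadjusted p under 0.05 there was 1 member, Slc25a32, against a background of 4.63%. Groups did not overlap for 3 members, Slc25a32, Slc25a33 and Slc25a51, which is 10.3% of 29, against 9.59% of all genes. By direction, 2 members (6.9%) were higher and 1 (3.45%) was lower in Flvcr-deleted cells, against 5.23% and 4.36% of all genes. These shares lie near the background. In Flvcr-deleted cells 19 of the 29 genes read higher and 10 lower, beside 4564 and 4244 of all 8808 genes tested. The higher ones include values as small as 0.01 for Slc25a35 and 0.02 for Slc25a5. The median log2 fold change of the 29 members was 0.05, beside 0.01 over all genes tested.

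The measurement limited differences as well as failing to show them. Log2 fold changes of members ran from -0.56 to 0.51, and 0 of 29 exceeded 1.5-fold, beside 2.59% of all genes tested. The 95% interval of the difference lay within 1.5-fold either way for 17 members (58.6%, beside 57.2% of all genes) and within 2-fold for 27. Both exceptions to the wider limit were Slc25a32 and Slc25a33. Standard errors of members ran from 0.11 to 0.293 (median 0.194, beside 0.188 over all genes), and the median SD within groups was 0.209, beside 0.213. The family was therefore measured with a spread close to that of other genes.

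**Figure D2:**
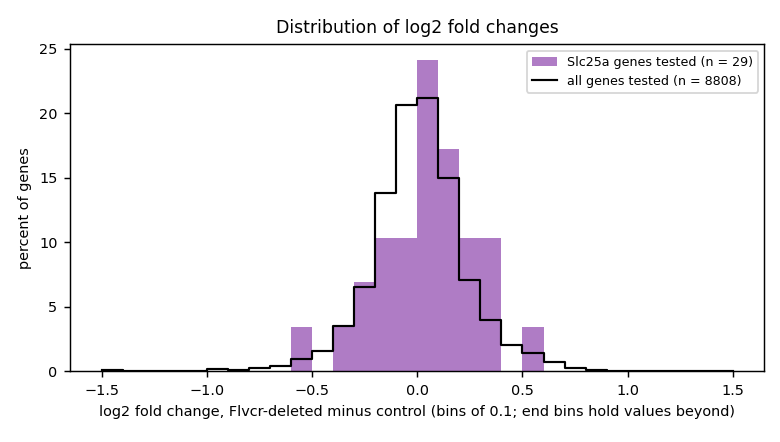
Percent of genes (y axis) in bins of the log2 fold change, Flvcr-deleted minus control (x axis, bins of 0.1), for the 29 Slc25a genes tested (filled) and all 8808 genes tested (line). The members lie between -0.56 and 0.51, with a median of 0.05.

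The mitoferrins, which bring iron into the matrix, did not pass the test, and the 95% intervals of their differences held 0. Slc25a37, mitoferrin 1, is the isoform on which red cell precursors depend. Its brightest probe read 775.2, 827.4 and 828.7 intensity units in Flvcr-deleted replicates 1, 2 and 3, against 1038.8, 1002.6 and 612.1 in control replicates 1, 2 and 3. On the normalized log2 scale these were 9.44, 9.57 and 9.37 in Flvcr-deleted and 9.80, 9.65 and 9.17 in control cells. All 3 Flvcr-deleted arrays thus fell inside the range of the controls, where replicates 1 and 2 were high and replicate 3 was low. The means were 9.46 ± 0.10 in Flvcr-deleted and 9.54 ± 0.33 in control cells (SD, n = 3 each). The log2 fold change was -0.08 (95% interval -0.46 to 0.30). The limma adjusted p was 1. A second probe of the gene read 9.43, 9.73 and 9.35 in Flvcr-deleted and 9.66, 9.57 and 8.95 in control cells. Its log2 fold change was 0.11, so the probes differed in sign, and their mean gave 0.01. Both probes had control replicate 3 as the lowest array, and without control replicate 1 the brightest probe turned to 0.05.

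Slc25a28, mitoferrin 2, is the broadly expressed isoform. Its probe read 1548.9, 1247.4 and 1708.1 intensity units in Flvcr-deleted cells and 1434.1, 1308.8 and 1303.5 in control cells. Normalized, these were 10.55, 10.24 and 10.54 in Flvcr-deleted and 10.30, 10.07 and 10.42 in control cells. Replicates 1 and 3 of the Flvcr-deleted group lay above every control array and replicate 2 lay among them. The means were 10.44 ± 0.18 in Flvcr-deleted and 10.26 ± 0.18 in control cells (SD, n = 3 each). They differed by 0.18 on the log2 scale (95% interval -0.14 to 0.50, limma adjusted p = 1). The difference was 0.08 without control replicate 2 and 0.28 without Flvcr-deleted replicate 2. For both mitoferrins the interval left out a 1.5-fold difference in either direction.

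Because red cell precursors carry much mitoferrin 1, the globin signal was set beside these values. The mean of 11 globin probes was 7.03, 11.53 and 11.57 on the log2 scale in Flvcr-deleted replicates 1, 2 and 3, and 11.20, 9.48 and 9.53 in control replicates 1, 2 and 3. The globin signal spanned both groups and was lowest on Flvcr-deleted replicate 1. Slc25a37 on that array, at 9.44, was within the range of the other arrays. Any part of red cell precursors in the Slc25a37 values was not tested. Of 11 erythroid markers, 6 had a probe, Hbb-b1 and Hba-a1 were tested, and Hbb-b2 and Epb42 were detected on 0 arrays. Alas2, the erythroid enzyme that starts heme synthesis, was detected on 1 array. Summed intensities of the list, without background correction, were 1191 to 12713 in Flvcr-deleted and 2957 to 9363 in control cells.

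**Figure D3:**
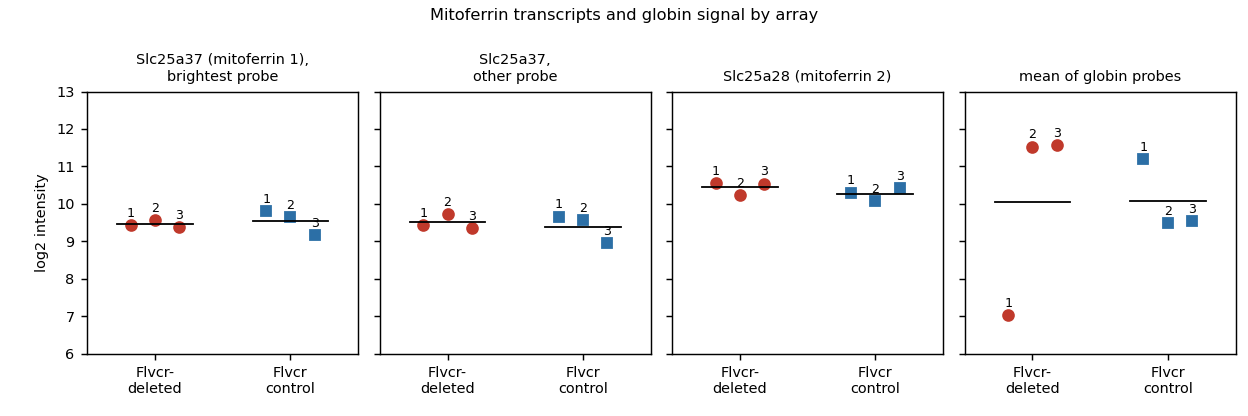
Log2 intensity (y axis) on each array for both probes of Slc25a37, for Slc25a28 and for the mean of 11 globin probes, with Flvcr-deleted arrays (circles) left of control arrays (squares), replicate numbers above the points and group means as lines. The mitoferrin values of the groups overlap, and the globin mean spans 7.03 to 11.57.

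RefSeq promoters (GRCm38.p6, 250 bases before to 50 after the start) were matched for 34 of the 44 members. The 250 bases before the start of Slc25a28 (chr19:43674882-43675131, minus strand) are shown because it is the mitoferrin gene with an entry, and they hold none of the 7 motifs searched, hence no capitals.
Slc25a28: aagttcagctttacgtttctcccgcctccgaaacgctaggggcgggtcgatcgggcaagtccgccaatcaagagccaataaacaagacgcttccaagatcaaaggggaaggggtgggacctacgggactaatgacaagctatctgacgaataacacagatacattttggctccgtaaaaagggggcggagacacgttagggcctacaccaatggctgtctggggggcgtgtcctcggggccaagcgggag
It holds 17 CG dinucleotides and 55.6% G and C, where promoters of detected members had a median of 60.3% G and C over 300 bases. Median CG counts per 300 bases were 17 in 30 promoters of detected members, 12 in 14 promoters of undetected members and 21 in 9094 promoters of all genes tested.

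Motifs were searched on both strands, with overlaps between motifs allowed. The antioxidant response element core TGACNNNGC, the motif bound by NRF2 and by the heme-sensing repressor BACH1, was in 33.3% of 30 promoters of detected members. It was in 14.3% of the promoters of all genes tested and in 12.4% of all 32851 promoters. The detected members with it were Slc25a3, Slc25a5, Slc25a14, Slc25a23, Slc25a25, Slc25a33 and Slc25a53. The 10 promoters with it outnumber these genes, so at least 1 gene is counted more than once, and promoters of 1 gene can share sequence. The E-box CACGTG was in 20% and 10.4% of promoters of detected members and of all genes tested. The cyclic AMP response element TGACGTCA was in 6.67% and 3.22%, the NRF1 motif in 3.33% and 10.9%, and the ETS motif CCGGAAGT in 3.33% and 9.07%. The GATA factor motif AGATAA was in 6.67% and 6.23%. The TATA box, TATAAA, was in 0% and 6.95%. The counts are small and these matches are descriptions of the letters in this window.

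Carriers of adenine nucleotides and phosphate mostly read higher, with 95% intervals that held 0. Among 5 tested members 4 had positive and 1 had negative log2 fold changes (median 0.22), and 0 passed. Slc25a3 supplies phosphate for ATP synthesis and also carries copper into the matrix. Its probe read 12.20, 12.51 and 12.43 in Flvcr-deleted replicates 1, 2 and 3, and 12.17, 11.99 and 12.33 in control replicates 1, 2 and 3. Flvcr-deleted replicates 2 and 3 lay above all controls, but replicate 1 did not. The log2 fold change was 0.22 (95% interval -0.04 to 0.48, limma adjusted p = 1), while a second probe of the gene read -0.09, and the mean of both gave 0.07.

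Slc25a5, an X-linked gene, read 14.36, 14.16 and 14.25 in Flvcr-deleted and 13.98, 14.43 and 14.31 in control cells. The Flvcr-deleted arrays lay inside the control range, and the log2 fold change of 0.02 (95% interval -0.22 to 0.25) had the smallest standard error of the 29 members. On the 2 arrays with a male pattern Slc25a5 stood at 14.36 in the Flvcr-deleted and 14.31 in the control sample, within the range of the other arrays.

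The ATP-Mg/phosphate carriers adjust the adenine nucleotide content of the matrix in response to calcium. Slc25a25 read 8.12, 8.13 and 8.38 in Flvcr-deleted and 7.89, 7.67 and 8.16 in control cells (log2 fold change 0.30, SE 0.192). Slc25a24 read 6.57, 7.35 and 6.71 in Flvcr-deleted and 6.55, 6.79 and 6.26 in control cells (0.34, SE 0.259), and its other detected probe -0.07. Slc25a23 read 7.52, 7.13 and 7.11 in Flvcr-deleted and 7.28, 7.75 and 7.49 in control cells (-0.25, SE 0.215). The groups overlapped for all 3 genes, and Slc25a24 was high on Flvcr-deleted replicate 2 alone.

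The widest differences in either direction lay among carriers of cofactors and other nucleotides. Of 7 tested members 6 read higher and 1 lower, the median log2 fold change was 0.22, and 0 passed in limma. All 3 members with groups that did not overlap were in this list, which is 42.9% of 7, beside 9.59% of all genes tested. The share rests on few genes. The probes of these members, Slc25a32, Slc25a33 and Slc25a51, were dim, with mean log2 intensities of 6.31, 5.79 and 6.41. Whether the wide differences go with substrate or with low signal was not tested. Slc25a32, which carries folate and flavin adenine dinucleotide, read 6.69, 6.50 and 6.52 in Flvcr-deleted replicates 1, 2 and 3, and 5.99, 5.95 and 6.23 in control replicates 1, 2 and 3. Every Flvcr-deleted array was above every control array. The means were 6.57 ± 0.10 in Flvcr-deleted and 6.06 ± 0.15 in control cells (SD, n = 3 each). The difference of 0.51 on the log2 scale (SE 0.233) corresponds to 1.43-fold. The unadjusted limma p was 0.0438 and the adjusted p was 1. Its intensities, 193.3 to 214.9 in Flvcr-deleted and 171.1 to 191.1 in control cells, were low, and without background correction the log2 fold change was 0.21. The other 2 probes of the gene were not detected.

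Slc25a33, a pyrimidine nucleotide carrier that supplies mitochondrial DNA and RNA synthesis, read in the opposite direction. It stood at 5.72, 5.01 and 5.80 in Flvcr-deleted and 6.39, 5.86 and 5.95 in control cells. All Flvcr-deleted arrays were below the controls, replicate 2 by most, and the probe was not detected on that array. The log2 fold change was -0.56 (SE 0.293), or 1.47-fold lower, with a 95% interval of -1.18 to 0.07 and a limma adjusted p of 1. It was -0.31 without Flvcr-deleted replicate 2 and -0.19 without background correction. The paralogue Slc25a36 read 7.01, 7.04 and 6.59 in Flvcr-deleted and 6.32, 6.47 and 6.70 in control cells. Its groups overlapped through Flvcr-deleted replicate 3 and control replicate 3 (log2 fold change 0.38, SE 0.233), and its other detected probes ran from -0.19 to 0.32.

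The 250 bases before the start of Slc25a33 (chr4:149774268-149774517, minus strand, GRCm38.p6, from RefSeq) are shown because it had the lowest log2 fold change of the family. Capitals mark the matches to the antioxidant response element core, read on the reverse strand, and to the E-box.
Slc25a33: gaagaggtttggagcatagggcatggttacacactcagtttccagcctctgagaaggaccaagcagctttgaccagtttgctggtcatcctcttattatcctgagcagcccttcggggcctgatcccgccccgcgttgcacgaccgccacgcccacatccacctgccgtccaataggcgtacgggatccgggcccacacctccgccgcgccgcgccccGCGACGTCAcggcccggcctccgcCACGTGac
They hold 23 CG dinucleotides and 64.4% G and C, with both motifs close to the start.

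Slc25a51, the mitochondrial NAD carrier, read 6.53, 6.45 and 6.58 in Flvcr-deleted and 6.36, 6.31 and 6.23 in control cells. The groups did not overlap, but the gap between them was small. The log2 fold change was 0.22 (SE 0.224, limma unadjusted p = 0.34), and 0.09 without background correction. Slc25a26, which imports S-adenosylmethionine, read 7.71, 7.81 and 7.77 in Flvcr-deleted and 7.27, 7.45 and 7.75 in control cells (log2 fold change 0.28, SE 0.198). Control replicate 3 overlapped the Flvcr-deleted arrays. Slc25a17, a peroxisomal carrier of coenzyme A and related cofactors, and Slc25a16, linked to mitochondrial coenzyme A, both had log2 fold changes of 0.07.

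**Figure D4:**
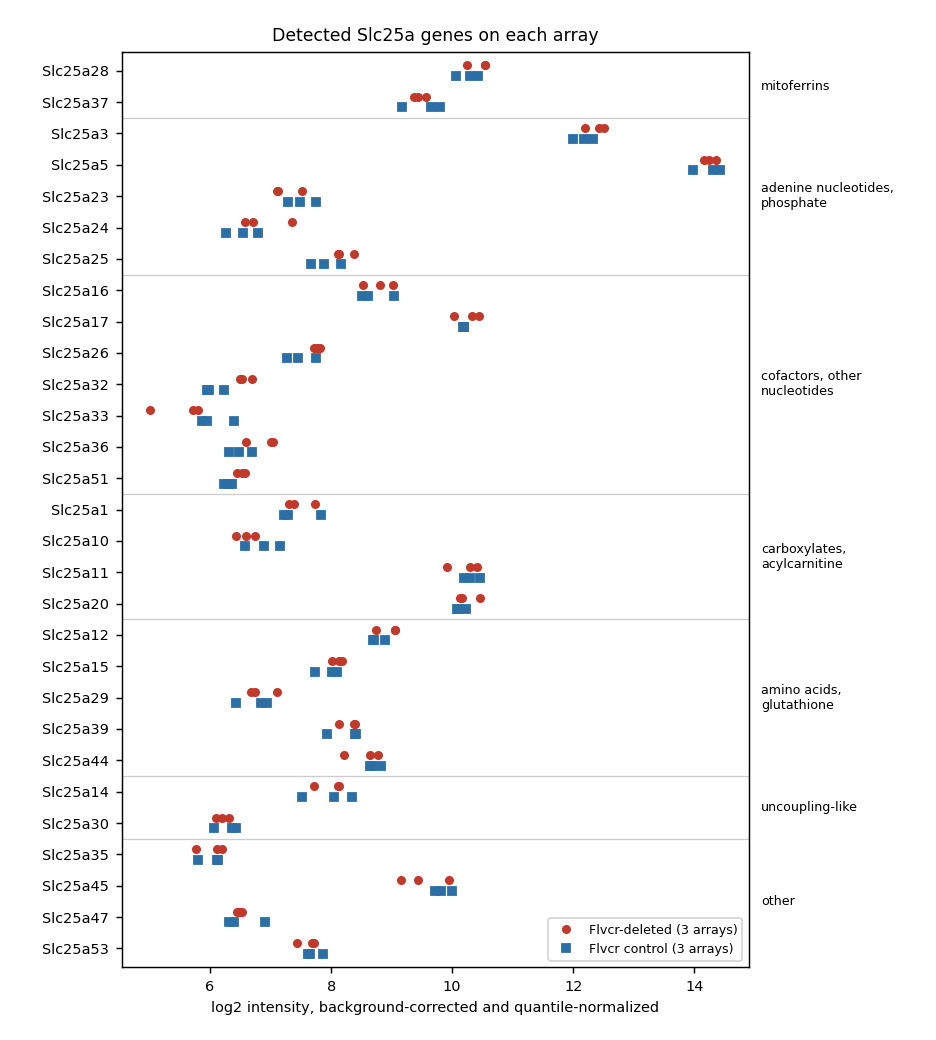
Background-corrected, quantile-normalized log2 intensity (x axis) of the 29 detected Slc25a genes, grouped by substrate, with 3 Flvcr-deleted arrays (circles) above 3 control arrays (squares) in each row. The groups are apart only for Slc25a32, Slc25a33 and Slc25a51, and levels of different genes are not comparable.

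Carriers of carboxylates and acylcarnitine were even between directions. Of 4 tested members 2 read higher and 2 lower, the median log2 fold change was -0.04, and 0 passed. Slc25a10, the dicarboxylate carrier, read 6.59, 6.43 and 6.74 in Flvcr-deleted and 7.15, 6.57 and 6.89 in control cells (log2 fold change -0.28, SE 0.233). The groups overlapped, with control replicate 1 the highest array. Slc25a11, the oxoglutarate carrier of the malate-aspartate shuttle, read -0.11 to -0.26 over its 3 detected probes. Slc25a20, the carnitine-acylcarnitine carrier needed for fatty acid oxidation, stood at 0.12, with a second probe at 0.20. Slc25a1, which exports citrate for fatty acid and sterol synthesis, stood at 0.02, with a second probe at 0.26.

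By their brightest probes the amino acid and glutathione carriers had small differences. Second probes of Slc25a12 and Slc25a15 read wider but were dim and not detected on every array. Among 5 tested members 4 had positive and 1 had negative values (median 0.11), and 0 passed. Slc25a12, the aspartate-glutamate carrier aralar, read 9.05, 9.06 and 8.74 in Flvcr-deleted and 8.69, 8.89 and 8.71 in control cells (log2 fold change 0.18, SE 0.167). Flvcr-deleted replicate 3 lay among the controls. A second, dimmer probe of Slc25a12 gave 0.51 (SE 0.277), and the mean of both gave 0.35. This second probe was detected on 3 Flvcr-deleted and 1 control arrays, so it passed the filter mainly through the group where it read higher. Slc25a44, a carrier of branched-chain amino acids, read 8.77, 8.22 and 8.65 in Flvcr-deleted and 8.83, 8.67 and 8.64 in control cells (-0.17, SE 0.183), with Flvcr-deleted replicate 2 the lowest. Slc25a39, the glutathione importer, stood at 0.05 (95% interval -0.35 to 0.46). The ornithine carrier Slc25a15 stood at 0.16 and the basic amino acid carrier Slc25a29 at 0.11. A second probe of Slc25a15, detected on 2 Flvcr-deleted and 1 control arrays, stood at 0.34.

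The remaining carriers gave no call either. The uncoupling-like proteins Slc25a14, an X-linked gene, and Slc25a30 had log2 fold changes of 0.02 and -0.09. Of 4 tested carriers without a settled substrate 1 read higher and 3 lower, with a median of -0.08. Slc25a45 read 9.94, 9.15 and 9.44 in Flvcr-deleted replicates 1, 2 and 3, and 10.00, 9.82 and 9.71 in control replicates 1, 2 and 3. Flvcr-deleted replicates 2 and 3 were below all controls and replicate 1 was among them. The log2 fold change was -0.33 (SE 0.189, limma adjusted p = 1), and leaving out Flvcr-deleted replicate 1 gave -0.55, leaving out replicate 2 of that group -0.16. Slc25a35, Slc25a47 and the X-linked Slc25a53 stood at 0.01, -0.06 and -0.10.

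**Figure D5:**
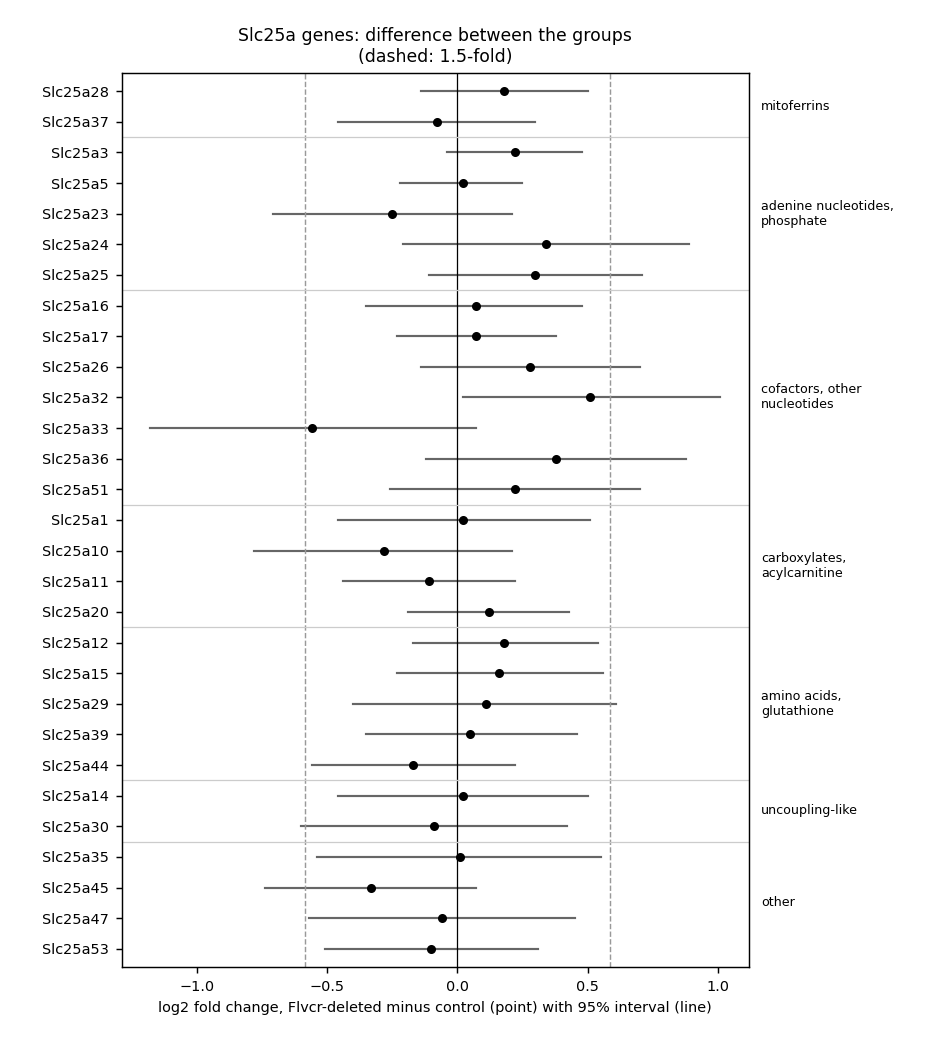
Log2 fold change, Flvcr-deleted minus control (x axis), of each detected Slc25a gene (points) with its 95% interval (lines), and 1.5-fold in either direction as dashed lines. All points lie inside the dashed lines, and only the interval of Slc25a32, from 0.02 to 1.01, leaves out 0.

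Arrays of 1 group differed as much as the groups did. The median level of the 29 members was 8.11, 7.81 and 8.01 on Flvcr-deleted replicates 1, 2 and 3, and 7.65, 7.75 and 8.09 on control replicates 1, 2 and 3. Control replicate 3 lay above Flvcr-deleted replicates 2 and 3, so the groups overlapped. Flvcr-deleted replicate 1 was the lowest of the 6 arrays for 0 of 29 members, where it was the lowest for 12.5% of all genes. Control replicate 1 was the lowest for 9 members (31%), beside 15.2% of all genes. The members lay on 19 chromosomes, 3 of them on the X chromosome. Where several probes of a member were detected, 5 of 9 genes had probes of 1 sign and 4, Slc25a3, Slc25a24, Slc25a36 and Slc25a37, had probes of both signs. For Slc25a24 and Slc25a36 the probe of opposite sign was dim, with mean log2 intensities of 5.74 and 5.29, and detected on 4 and 3 arrays.

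Family members with another symbol, carrier import genes and other mitochondrial transporters showed 0 calls in limma too. Of 5 family members with another symbol, Mtch1 and Mtch2, outer membrane proteins, were tested and had log2 fold changes of -0.04 and -0.08. Ucp1 and Ucp3 were detected on 0 arrays. Among 10 tested genes of the machinery that imports carriers into the inner membrane, 4 read higher and 6 lower (median -0.03). The import pore gene Tomm40 stood at -0.31 (SE 0.224) and the chaperone gene Timm10 at 0.24 (SE 0.2), with overlapping groups for both. Of 12 tested other transporters of mitochondria 8 read higher and 4 lower (median 0.03). Of these 12, 1 had an unadjusted limma p under 0.05, beside 4.63% of all genes tested. This was Sfxn3, a serine transporter gene of the sideroflexin family, with 4.84, 5.11 and 5.97 in Flvcr-deleted and 6.36, 5.93 and 5.78 in control cells. It was detected on 1 Flvcr-deleted and 3 control arrays, and the groups overlapped (log2 fold change -0.72, limma unadjusted p = 0.0421, adjusted p = 1). Sfxn1, a further serine transporter gene, stood at 0.16.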

How the data were processed

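Per the file headers, 1 deposited table held non-normalized linear probe intensities, and beside each intensity a detection p-value. A second deposited table held log2 values; the submitters' processing notes name lumi, and these values equalled the log2 of quantile-normalized intensities to within 5e-09. Genome build and chip are not given in the sources used here. Probes were named through the platform annotation, updated with the RefSeq gene table of GRCm38.p6.

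Intensities were background-corrected with negative controls inferred from detection p-values, quantile-normalized and logged by the neqc function (limma 3.58.1, R 4.3.3, offset 16, which understates changes of dim probes). Probes with a detection p under 0.05 on 3 or more arrays were kept (15448). The difference between Flvcr-deleted and control arrays was tested by lmFit and eBayes (variance trend, 2-sided test), with Benjamini-Hochberg adjustment over all kept probes. The procedure was tested on simulated data. A gene stood for its brightest kept probe. Named with values were the mitoferrins, Slc25a3, the ADP/ATP carriers, called members and the 12 further members with the smallest p, and of each companion list the 2 with the smallest p or its called genes. Members and lists were chosen with earlier results of these data known.

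The number of arrays limits the precision. Alternatives changed background correction, normalization, the deposited values, the filter, array weights, the variance model, Xist and globin terms, a block on replicate numbers, the arrays, the probe per gene and thresholds. Same-numbered arrays had deviations correlated at -0.15, 0.09 and 0.11, and differently numbered arrays at -0.19 to 0.08. With 3 arrays per group these values cannot decide whether the numbers pair the samples. The main fit did not use a pairing. Promoter motifs were counted in Python 3.11.15.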

Additional observations from a re-analysis of the deposited data

How the results depend on the processing

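Under all 18 alternatives to the analysis, and at an adjusted p of 0.1, 0 Slc25a genes passed in limma. The median log2 fold change of the members stayed within 0.23, the SD of the member median over control arrays, of the main 0.05. This limit is wide beside a median of 0.05, so staying within it says little, and the sign of the median was not stable. It was -0.01 over all 44 members with no detection filter. Of 287 values for the 16 named members, 283 kept their direction and 4 turned it. Many of these values could not turn. Changing the filter or the variance model, or adding the replicate block, left a probe's log2 fold change as it was. The deposited values repeat those without background correction. The count of kept directions is therefore not a count of separate checks. Slc25a37 turned to 0.01 with the mean of its probes and to 0.05 without control replicate 1, and Slc25a5 to -0.04 without Flvcr-deleted replicate 1 and to -0.11 without control replicate 1. Leaving out 1 array moved 13 of the 16 named members by over 1.5 times at least once, with Slc25a32, Slc25a36 and Slc25a51 as the exceptions; for example Slc25a24 ranged from 0.11 to 0.49 and Slc25a44 from -0.28 to -0.01. With arrays left out in turn Slc25a37 ranged from -0.26 to 0.05 and Slc25a5 from -0.11 to 0.11, and the median of the members ranged from -0.03 to 0.14. The count over all genes, 13, was 1 without a variance trend, 30 with array weights, 6 when a gene's probes were averaged, and ranged from 2 to 12 with arrays left out. The Xist and globin terms were nearly balanced between the groups, so they could hardly move a difference. The replicate block gave 0 members and 12 genes in all, with a member median of 0.05 and Slc25a32 at 0.51 (limma adjusted p = 0.968). Detected members numbered 29 at a detection p under 0.01 and 28 with detection on all 6 arrays required. The cause of these shifts was not tested. The probes of Slc25a32 and Slc25a33 were dim, with mean log2 intensities of 6.31 and 5.79, and any part of low signal in their shifts was not tested.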
